A study of Mus musculus with 8 samples.

Results

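MiR-223, miR-142 and miR-511 are miRs of blood-derived cells, and their mature arms were followed in callus tissue of the mouse femur. All arms of these miRs on the array were taken by name, which gave 6 of the 1079 murine miRs: the 3p and the 5p arm of each. Of these, 4 arms were detected on all 8 arrays (mmu-miR-223-3p, mmu-miR-142-3p, mmu-miR-142-5p and mmu-miR-511-3p). The arms mmu-miR-223-5p and mmu-miR-511-5p were detected on none. The study compared callus of male and female young adult CD-1 mice in which an osteotomy of the right femur was held by a pin and a clip. In the Nonunion group (P13 to P16, n = 4) the gap was 1.8 mm wide and the periosteum beside it was stripped. In the Union group (P17 to P20, n = 4) the gap was 0.25 mm wide and the methods name no stripping. RNA was taken on day 7, so that the group names stand for the course these gaps are known to take and not for an outcome seen in these mice. Each array holds the callus of a single mouse, and the tissue was not sorted.

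MiR-223 is made mainly in cells of the myeloid line, above all in neutrophils, and restrains their maturation and activity. MiR-142 is expressed in all lines of blood cells and serves as a general leukocyte marker. MiR-511 lies in an intron of Mrc1, the gene of the mannose receptor CD206, and is made together with it in macrophages, mostly those of the resident or tissue-repair kind. In a healing fracture, neutrophils arrive first and macrophages follow and take part in callus formation. The question here was whether the neutrophil and leukocyte arms differed between the groups in the same way as the macrophage miR.

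The mature sequences are shown because the array measures these RNAs through probes to them, and because the seed (bases 2 to 8, in capitals) sets which mRNAs a miR can bind. Of the 6 arms, 5 were matched to RefSeq (GRCm38.p6), where the arms of miR-142 carry the newer name miR-142a. No sequence of miR-511-5p was at hand.
miR-223-3p: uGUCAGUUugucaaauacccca
miR-223-5p: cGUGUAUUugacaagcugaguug
miR-142-3p: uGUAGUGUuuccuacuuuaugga
miR-142-5p: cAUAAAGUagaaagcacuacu
miR-511-3p: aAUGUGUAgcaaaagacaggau
The 5 seeds differ from each other, and no other mature murine miR of the RefSeq table carries any of them. The arms thus form no seed family.

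The precursor hairpins are shown with the matched mature arms in capitals (in Mir511 the 3p arm alone, since the 5p arm had no match), since both arms of a precursor come from 1 transcript and only 1 of the 2 arms was detected for miR-223 and miR-511. Mir223 lies at chrX:96242817-96242926, Mir142 at chr11:87756864-87756927 and Mir511 at chr2:14261003-14261081, all on the + strand of GRCm38.p6.
Mir223: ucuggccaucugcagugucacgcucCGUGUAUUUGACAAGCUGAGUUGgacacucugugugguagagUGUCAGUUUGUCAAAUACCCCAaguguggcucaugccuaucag
Mir142: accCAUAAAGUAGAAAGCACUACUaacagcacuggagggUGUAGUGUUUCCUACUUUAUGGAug
Mir511: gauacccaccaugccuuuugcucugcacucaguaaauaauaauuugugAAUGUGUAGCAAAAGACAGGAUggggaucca
In the same annotation, Mir511 lies within the bounds of Mrc1, Mir223 within those of F630028O10Rik, and Mir142 overlaps Mir142b.

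Each miR was represented by 40 spots, which the scanner software merged to 1 signal in linear units. The merged signals of the detected murine miRs summed to between 183513 and 279269 units on the Nonunion arrays and to between 227869 and 359995 units on the Union arrays, and P20 had 266519. Of the 1079 murine miRs, 310 were detected on all arrays and tested. For the tests, the log2 of the merged signals was quantile normalized, and differences are given as Nonunion minus Union in log2 units. The median difference over the 310 tested miRs was 0.15, and without normalization it was -0.10. All arrays were on 1 slide, and each group filled 1 row of it, so that row and group cannot be told apart. The array P20 of the Union group stood apart in the leukocyte arms, and P19 of the same group in miR-511-3p. Differences are therefore also given without them.

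MiR-223-3p had a merged signal of 2686, 1762, 2104 and 1969 units on P13 to P16 of the Nonunion group. In the Union group the signal was 3721, 3276 and 3684 units on P17 to P19 and 12898 units on P20. Every Nonunion array thus lay below every Union array, and P20 was 3.47 times as bright as the next array. On the normalized log2 scale the Nonunion arrays averaged 11.09 ± 0.26 and the Union arrays 12.22 ± 1.11 (mean ± SD, n = 4 each). This is a log2 difference of -1.13 (SE 0.49, 95% interval -2.23 to -0.022), or a 2.18-fold lower level in the Nonunion group. Limma gave a p of 0.0464 (adjusted p = 0.346), and an exact two-sided permutation of the arrays gave p = 0.0286, the lowest value that 4 against 4 can reach. Without P20 the log2 difference was -0.60 (SE 0.24) or 1.51-fold, with a limma p of 0.0366 (adjusted p = 0.286; exact permutation p = 0.0571), and the groups still did not overlap. P20 thus set a large part of the size of this difference. The limma p moved above the study's unadjusted threshold of 0.05 when any of the 4 Nonunion arrays or P19 was left out, with the highest value at 0.107 without P14. With scaling to the 75th percentile of the detected miRs it was 0.0513.

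In miR-142-3p the merged signal was 2048, 1589, 1344 and 1798 units on P13 to P16. On P17 to P19 it was 2372, 1880 and 1742 units, and on P20 it was 6822 units. The groups overlapped, with P18 and P19 within the range of the Nonunion arrays and P17 just above it. After normalization the mean log2 signals were 10.73 ± 0.25 for Nonunion and 11.39 ± 0.92 for Union (SD, n = 4 each). Their difference, -0.65 (SE 0.42, 95% interval -1.60 to 0.29), was smaller than the SD of the Union group (adjusted p = 0.386 by limma, exact two-sided permutation p = 0.257). Without P20 it was -0.19 (SE 0.20, 95% interval -0.65 to 0.26).

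MiR-142-5p, the partner arm on the same hairpin, had 252, 183, 156 and 209 units on P13 to P16. It had 283, 220 and 171 units on P17 to P19 and 679 units on P20. Again P20 stood alone, P18 and P19 lay among the Nonunion arrays, and P17 lay just above them. The mean normalized log2 signals were 7.73 ± 0.40 for Nonunion and 8.11 ± 0.86 for Union (SD, n = 4 each). They differed by -0.38 (SE 0.42, 95% interval -1.32 to 0.56), less than the SD of the Union group (adjusted p = 0.549 by limma, exact two-sided permutation p = 0.571). Without P20 the difference turned to 0.056 (SE 0.25, 95% interval -0.52 to 0.63).

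MiR-511-3p was much dimmer but was measured on every array, with 82.6, 93.1, 69.7 and 62.7 units on P13 to P16. On P17 to P20 it had 173, 171, 96.0 and 115 units. The brightest Nonunion array (P14) and the dimmest Union array (P19) lay close to each other in merged signal, but the groups did not overlap. After normalization the mean log2 signals were 6.35 ± 0.048 for Nonunion and 6.94 ± 0.18 for Union (SD, n = 4 each). This is a log2 difference of -0.59 (SE 0.17, 95% interval -0.98 to -0.20), or a 1.50-fold lower level in the Nonunion group. Limma gave a p of 0.00765 (adjusted p = 0.288), and the exact two-sided permutation gave p = 0.0286. Unlike in the leukocyte arms, P20 was not the highest array. It had a normalized log2 signal of 7.01, the same as P17, since quantile normalization gives the same value to miRs of the same rank. Without P20 the difference was -0.57 (SE 0.18), and without P19 it was -0.69. Among the 4 detected arms, miR-511-3p had the smallest limma p, the 7th smallest of all 310 tested miRs.

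**Figure D1:**
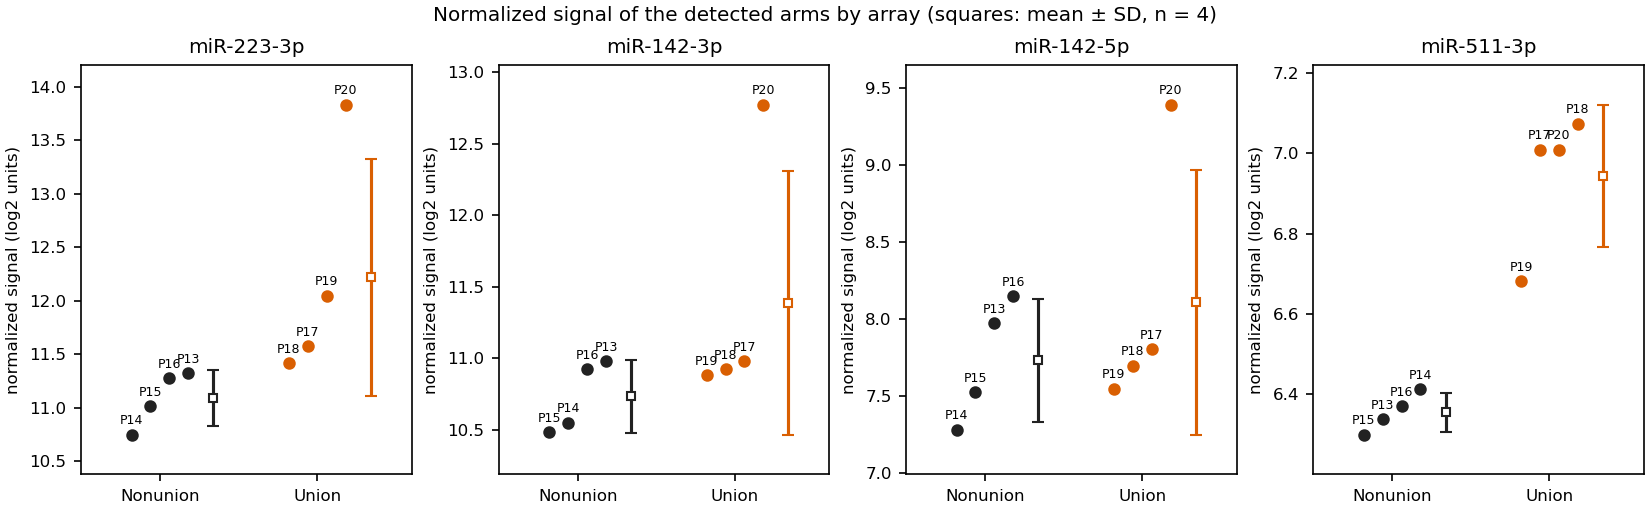
Normalized signal (log2 units, y axis) of the 4 detected arms on each array, by group, with the specimen above each point and the group mean ± SD (n = 4) as a square with a bar. The y axes differ between panels and do not start at 0. In miR-223-3p and miR-511-3p every Nonunion array lies below every Union array, while in miR-142-3p and miR-142-5p only P20 of the Union group lies apart from the others.

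By the study's threshold, an unadjusted p of 0.05, applied here to limma, 2 of the 4 tested arms (miR-223-3p and miR-511-3p) were lower in the Nonunion group. None was higher. In the study's own test miR-511-3p passed this threshold but miR-223-3p did not, and miR-223-3p was listed there for its FC. Among all 310 tested miRs, 13.9% passed this threshold, 4.19% as lower and 9.68% as higher. The groups did not overlap in the same 2 arms. Of all tested miRs, 3.87% did not overlap between the groups, and 2.58% were lower without overlap. After Benjamini-Hochberg adjustment none of the 4 arms remained under 0.05, as was the case for all but 0.323% of the tested miRs. A mean FC of 2 or more in the lower direction was found for miR-223-3p only, against 1.29% of all tested miRs. All 4 arms had a mean below that of the Union group, as had 40.6% of the tested miRs. The median log2 difference of the 3 leukocyte arms was -0.65, beside 0.15 over all tested miRs. Without P20 it was -0.19, beside 0.23 over all miRs tested then. The arms of miR-142 come from 1 precursor and are not independent. In callus RNA, fewer cells of a type and less of the miR per cell cannot be told apart.

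MiR-223-5p and miR-511-5p were not detected on any array. For miR-223-5p, 0 of the 320 spots on the 8 arrays were well above background, and its probe signals lay between -1.73 and -0.040 units. For miR-511-5p, 2 of 320 spots were well above background, both on P13, and the probe signals lay between -0.41 and 1.25 units. The lowest merged signal of any detected miR was between 2.16 and 2.39 units, depending on the array. On P20, where miR-223-3p reached 12898 units, its partner arm was still not detected. No fold change between the groups can be given for these arms.

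The contrast of the neutrophil and leukocyte arms with the macrophage miR was made within each array, as the normalized log2 signal of an arm minus that of miR-511-3p. Only the change of this value between the groups carries information, since the level of a probe depends on its sequence. For miR-223-3p the value was 4.99, 4.34, 4.71 and 4.90 on P13 to P16. On P17 to P20 it was 4.56, 4.34, 5.37 and 6.82. P17 and P18 thus lay within the Nonunion range, and P19 and P20 above it. The group means differed by -0.54, less than the SD of the Union arrays (exact two-sided permutation p = 0.429, Benjamini-Hochberg adjusted over 3 contrasts 0.943). Without P20 they differed by -0.028 (exact two-sided permutation p = 0.914). MiR-223-3p and miR-511-3p were thus lower in the Nonunion group by amounts between which no difference was detected.

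For miR-142-3p relative to miR-511-3p the values were 4.64, 4.14, 4.19 and 4.55 on P13 to P16 and 3.97, 3.85, 4.20 and 5.76 on P17 to P20. The difference between the group means was -0.066 (exact two-sided permutation p = 0.943). P20 lay above and P17 and P18 lay below all Nonunion arrays, and without P20 the difference turned to 0.38 (exact two-sided permutation p = 0.171). For miR-142-5p relative to miR-511-3p the values were 1.63, 0.87, 1.23 and 1.78 on P13 to P16 and 0.80, 0.62, 0.87 and 2.38 on P17 to P20. Their difference was 0.21 (exact two-sided permutation p = 0.686, adjusted 0.943). Without P20 it was 0.63, and the 3 remaining Union arrays lay below all 4 Nonunion arrays (exact two-sided permutation p = 0.0571, the lowest value that 4 against 3 can reach).

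**Figure D2:**
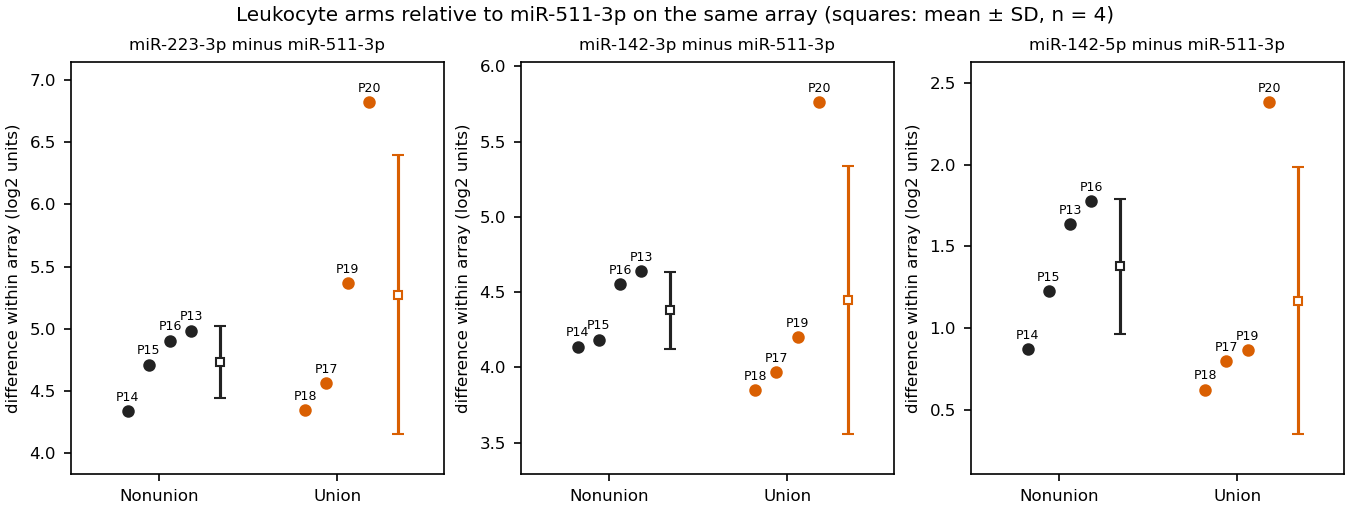
Normalized log2 signal of miR-223-3p, miR-142-3p and miR-142-5p minus that of miR-511-3p on the same array (log2 units, y axis), by group, with the mean ± SD (n = 4) as a square with a bar. The y axes differ between panels. P20 is the highest array in each panel, and for miR-142-5p the other 3 Union arrays, at 0.62 to 0.87, lie below the Nonunion arrays, with P19 just under P14.

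MiR-223-3p was also set against the arms of miR-142 on the same array, a comparison added after the signals had been seen. Relative to miR-142-5p, miR-223-3p had values of 3.35, 3.47, 3.49 and 3.13 on P13 to P16 and of 3.77, 3.72, 4.50 and 4.44 on P17 to P20. All Nonunion arrays lay below all Union arrays, with a difference of -0.75 (exact two-sided permutation p = 0.0286, adjusted over 2 contrasts 0.0571). This separation did not rest on P20, without which the difference was -0.65 and the groups still did not overlap. Relative to miR-142-3p the difference was -0.47, and the groups overlapped between P15 (0.53) and P18 (0.49) (exact two-sided permutation p = 0.0571, adjusted 0.0571). Without normalization these differences were -0.65 and -0.53. The groups then overlapped relative to miR-142-5p, with P15 above P17 (exact two-sided permutation p = 0.0571). Relative to miR-142-3p they then narrowly did not overlap (exact two-sided permutation p = 0.0286). The neutrophil arm was thus lower in the Nonunion group also relative to the leukocyte arms, by a margin that passed no adjusted threshold.

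Both arms of miR-142 moved together over the arrays. The normalized log2 signal of the 3p arm minus that of the 5p arm lay between 2.78 and 3.27 in the Nonunion group and between 3.17 and 3.38 in the Union group. The means differed by -0.28, more than the SDs of 0.20 and 0.096 of the groups (n = 4 each), but the groups overlapped, with P14 of the Nonunion group among the Union arrays (exact two-sided permutation p = 0.0857). Without normalization the difference was -0.12 (exact two-sided permutation p = 0.286). Across the 8 arrays the arms correlated with Pearson's r = 0.96 (exact two-sided permutation p = 0.00694, adjusted over the 3 pairs of leukocyte arms 0.0170) and Spearman's rho = 0.87 (exact permutation p = 0.00853, adjusted 0.0256). Without P20 alone r was 0.73, and without the arrays farthest from the median, P15 and P20, it was 0.79. No tested correlation is given with miR-223-3p or miR-511-3p, since in both the groups did not overlap and 4 arrays per group are too few for a value within each.

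The spots behind these values agreed closely. Each of the 4 detected arms had 2 probes with 20 spots each, all 1280 spots on the 8 arrays were well above background, and none was saturated. The error that the software gives for a merged signal was between 7.10% and 8.12%, and covers the spots of an array but not the spread between mice. For miR-223-3p both probes separated the groups without normalization, with log2 differences of -1.30 and -1.20. The brighter probe gave 74.2% to 78.0% of the merged signal. For miR-142-3p the probes gave -0.67 and -0.74, and for miR-142-5p they gave -0.57 and -0.56. Both probes of miR-511-3p were lower in the Nonunion group, by -0.80 and -0.84. Only the brighter of these separated the groups (exact two-sided permutation p = 0.0286), while in the dimmer probe P14 (38.9 units) lay above P19 (38.7 units) (exact two-sided permutation p = 0.0571).

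P20 was compared with the other arrays over all tested miRs. It exceeded the next highest array by at least 1 log2 unit in 8 of 310 miRs (2.58%), and miR-142-3p (by 1.79), miR-223-3p (by 1.78) and miR-142-5p (by 1.24) were among them. The others were miR-146a-5p (by 1.96), miR-340-3p, miR-139-5p, miR-467a-3p and miR-340-5p. On P16 there were 8 such miRs, none of them an arm followed here, and on each of the other 6 arrays there were 0. Those on P16 included miR-140-5p and miR-455-3p of cartilage, and miR-150-5p and miR-342-5p of lymphocytes. MiR-146a-5p and its relative miR-146b-5p, which inflammatory signals induce in leukocytes, had normalized log2 signals of 8.64 and 7.72 on P20. On the other 7 arrays they lay between 6.27 and 6.68 and between 6.16 and 6.73. MiR-155-5p, another miR induced in activated leukocytes, had 6.90 on P20 and at most 6.05 elsewhere. The other detected miRs of the inflammation list did not exceed the highest of the other arrays on P20. There miR-132-3p had 3.62 against up to 4.87 elsewhere, and miR-21-5p (14.70) and miR-212-3p (6.85) equalled the highest of the other arrays.

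The miRs with the profile most like that of an arm were taken as the 5 tested miRs with the highest Pearson's r over the 8 arrays, as a description with no test. For miR-223-3p they were miR-139-5p (r = 0.97), miR-340-3p, miR-340-5p, miR-146a-5p and miR-126-5p (r = 0.91). For miR-142-3p they were miR-340-3p (r = 0.99), miR-340-5p, miR-146a-5p, miR-139-5p and miR-146b-5p (r = 0.94), and for miR-142-5p they were miR-340-5p (r = 0.96), miR-340-3p, miR-326-3p, miR-146a-5p and miR-148b-3p (r = 0.88). These values share the weight of P20, and those of miR-223-3p also hold its group difference. Without it, the r of miR-146a-5p was 0.28 with miR-223-3p, 0.46 with miR-142-3p and 0.049 with miR-142-5p, while miR-340-5p kept 0.91 with miR-142-3p. The profile of miR-511-3p had other neighbours, miR-3096-5p (r = 0.98), miR-468-3p, miR-669n, miR-10b-5p and miR-5112 (r = 0.87), all of them lower in the mean of the Nonunion group. These r values hardly moved without P20 (0.98 for miR-3096-5p and 0.86 for miR-5112). They also hold the group difference of miR-511-3p, which leaving out P20 does not remove. For miR-3096-5p, the study's qrt-PCR found no significant difference between the groups. No miR was among the nearest 5 of both miR-511-3p and a leukocyte arm.

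Marker lists of other cells in the callus were set beside these values as sums of the normalized signals, in log2 units. The leukocyte list (the 3 detected arms of miR-223 and miR-142 out of 4) had sums of 11.72 to 12.24 on the Nonunion arrays, of 12.25 to 12.62 on P17 to P19 and of 14.44 on P20. The lymphocyte list (miR-150 and miR-342, 3 of 4 detected) had its lowest sum of all arrays on P20, 8.10. Most of this sum came from miR-342-3p (8.01 on P20). MiR-150-5p (3.79) and miR-342-5p (1.15) had their highest Union values on P20, below their highest Nonunion values (5.80 and 2.71). MiR-150-5p, the miR of mature B and T cells, differed by 0.49 (SE 0.55, limma adjusted p = 0.562), and miR-150-3p was not detected. Near the detection limit, miR-342-5p was higher in the Nonunion group by 2.07 (SE 0.80, limma adjusted p = 0.313) and passed the study's unadjusted threshold. The red blood cell list (3 of the 3 on the array) and the skeletal muscle list (4 of 6 on all arrays) had their lowest Union sums on P20, 11.56 and 15.25, and none of their members had an unadjusted limma p under 0.05.

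The inflammation list held miR-155-5p, miR-146a-5p, miR-146b-5p, miR-147-3p, miR-21-5p, miR-132-3p and miR-212-3p, of which 6 were detected on all arrays and miR-147-3p on none. Only miR-132-3p passed the study's threshold. It was higher in the Nonunion group by 0.95 (SE 0.28, limma adjusted p = 0.288), opposite in direction to miR-223-3p and miR-511-3p. MiR-146a-5p differed by -0.60 (SE 0.47, limma adjusted p = 0.419) and by -0.062 without P20. MiR-155-5p differed by -0.16 (SE 0.46, limma adjusted p = 0.835), and this turned to 0.30 (SE 0.31) without P20. The median difference of the 6 miRs was -0.21, beside 0.15 over all tested miRs. Without P20 it turned to 0.12, beside 0.23 over all miRs tested then. The summed signal of the list, most of it from miR-21-5p, was highest on P20 (14.74, next 14.72 on P13). There it lay 0.029 log2 units above its median.

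Among the lists of other cells, those of cartilage and mesenchyme alone had every arm past the study's unadjusted threshold. Their sums overlapped between the groups, while those of the macrophage list and, narrowly, of the leukocyte list did not. The latter sums add nothing separate from the arms above: the macrophage sum is miR-511-3p alone, and miR-223-3p is the largest part of the leukocyte sum. All 4 arms of the cartilage miRs miR-140 and miR-455 were higher in the Nonunion group at an unadjusted limma p under 0.05, with a median difference of 1.43, against 9.68% of all tested miRs that were higher by this threshold. The same held for the 4 mesenchymal arms of miR-199a and miR-214, with a median of 0.88. Without P20, 3 of the cartilage arms and 1 of the mesenchymal arms passed. In all 8 arms the groups overlapped, the limma adjusted p was between 0.288 and 0.322, and arms of a precursor are not independent. Their summed log2 signals were 9.81 to 11.94 and 12.85 to 14.17 on the Nonunion arrays against 8.79 to 10.01 and 12.17 to 13.41 on the Union arrays. The highest sums of both lists, 11.94 and 14.17, were on P16, and values without P16 are not given here. The part of these lists in the lower signals of miR-223-3p and miR-511-3p was not tested. P20 had the highest sum of the endothelial list (11.82, next 11.60 on P19). Its arms, of miR-126, differed by -0.26 and -0.36 (SE 0.19 and 0.20, limma adjusted p = 0.396 and 0.378). As markers of other organs, miR-124-3p (brain) and miR-122-3p (liver) were not detected on any array, miR-9-5p was detected on 1 and miR-122-5p on 4.

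**Figure D3:**
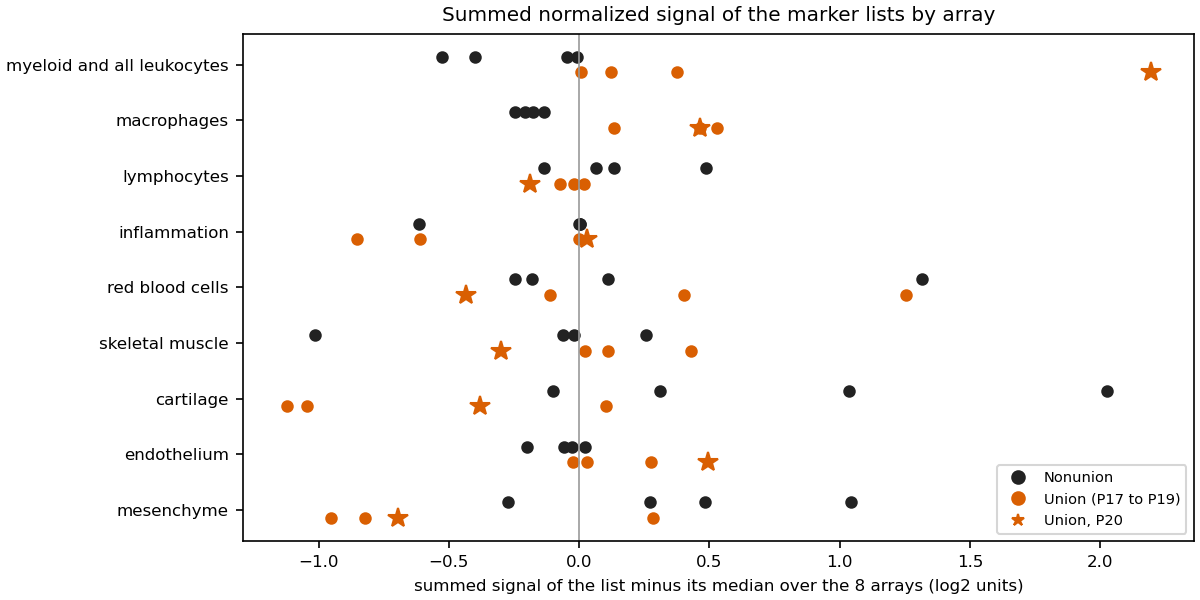
Summed normalized signal of each marker list on each array, as the log2 difference from the list's median over the 8 arrays (x axis). The lists are in rows, and the star is P20. P20 lies 2.19 log2 units above the median for the leukocyte list and 0.49 above it for the endothelial list. For inflammation it lies close to the median (0.029) but is still the highest array. It lies below the median for the lymphocyte, red blood cell and muscle lists. All Nonunion arrays lie below all Union arrays for the macrophage list (miR-511-3p alone) and, narrowly, for the leukocyte list.

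The size and the call of the group differences depended on the arrays and the scaling in different ways for the arms. For miR-511-3p the difference lay between -0.82 and -0.35 over the 18 alternatives, and its unadjusted p stayed under 0.05 in each (limma, and the exact permutation test as one of them). Its adjusted p ranged from 0.0524 to 0.619. For miR-223-3p the difference lay between -1.37 and -0.60, with 9 of the 18 alternatives under 0.05. For miR-142-3p (-0.83 to -0.19) and miR-142-5p (-0.58 to 0.056) no alternative gave a p under 0.05.

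**Figure D4:**
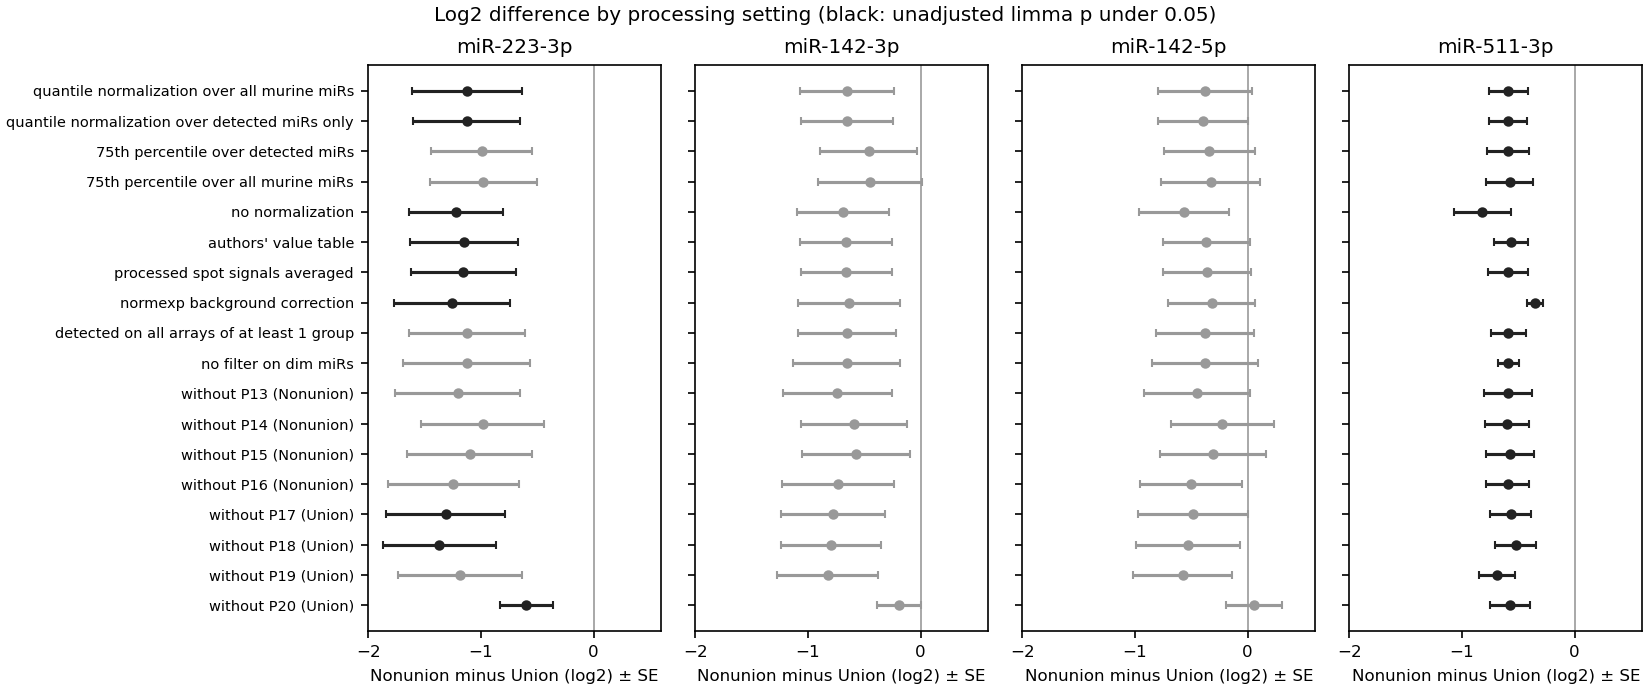
Log2 difference (Nonunion minus Union, x axis) with its SE for the 4 detected arms, under the main processing (top row) and each alternative fitted with limma (rows), black where the unadjusted limma p was under 0.05. MiR-511-3p is black in all rows, miR-223-3p in some, and the miR-142 arms in none. Leaving out P20 (bottom row) moved miR-223-3p to -0.60 and the miR-142 arms to near 0.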

How the data were processed

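Callus RNA of 8 mice was measured on 8 one-colour (Cy3) arrays of 1 slide. The deposited scanner files hold, per the file headers, what Feature Extraction 10.10.1.1 wrote for each spot: background-corrected signal intensity values on a linear scale, the merged signal of the miR, and calls of detection. A second deposited table, of log2 values quantile normalized by the authors, served as an alternative.

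Quantile normalization was applied to the log2 merged signals of the 1079 murine miRs. Those detected on every array (310) were fitted with lmFit and eBayes (R 4.3.3, limma 3.58.1). Tests were two-sided, with Benjamini-Hochberg adjustment. Intervals are moderated 95% intervals. Single values were tested by exact permutation of the arrays (scipy 1.17.1), and values without an array were normalized anew. Figures were drawn with matplotlib 3.10.9. The fit was tested on simulated data with known changes, in which residuals were shuffled for each miR. Such data hold no pattern shared between miRs on an array, so this does not show how reliable the calls here are.

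The arms, the marker lists and the likeness rule (5 miRs by r) were chosen with earlier results of these data known. The alternatives were other scalings, the authors' table, averaged spots, a normexp correction (offset 50), other filters and leaving out each array. No block could be fitted, because each slide row held 1 group. The array design is of mm9, and sequences are from RefSeq GRCm38.p6. No depth exists for arrays, whose number limits the precision.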

Additional observations from a re-analysis of the deposited data

Results flagged for a closer look

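Within a group of 4 arrays, 1 array far from the other 3 was looked for by Dixon's ratio in 20 groups, over the 4 detected arms and their within-array contrasts. Of these, 4 exceeded the critical value, and chance gives about 1 in 20 for independent groups. The groups here share arms and arrays and are not independent, so the count cannot be set against that share. P20 of the Union group lay apart in miR-142-3p (12.77 against 10.88 to 10.98, normalized log2 signal) and in miR-142-5p (9.39 against 7.55 to 7.81). It also lay apart in the contrast of miR-142-5p with miR-511-3p (2.38 against 0.62 to 0.87). In miR-223-3p, P20 was the highest array too (13.83 against 11.42 to 12.05), but its ratio of 0.739 was below the critical value for 4 samples. P19 of the Union group lay apart in miR-511-3p, with 6.68 against 7.01 to 7.07, between the other Union arrays and the Nonunion arrays (at most 6.41).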

How the results depend on the processing

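MiR-511-3p kept its direction and an unadjusted p under 0.05 in all 18 alternatives (limma fits and the exact permutation test). The difference of miR-223-3p kept its direction, but its limma p rose above 0.05 with the 75th percentile over the detected miRs (-0.99), with that over all murine miRs (-0.98) and, at the same difference of -1.13, with the filter on 1 group and with no filter. Leaving out single arrays gave values from -1.37 to -0.60. For miR-142-3p the range was -0.83 to -0.19, and for miR-142-5p it was -0.58 to 0.056, where the value without P20 reversed. The number of miRs higher in the Nonunion group was 30 and fell to 19 without normalization, and ranged from 11 to 85 with 1 array left out, the highest without P19. The number of lower ones was 13, rose to 20 with either of the other filters, which test more miRs, and ranged from 6 to 30. The contrast of miR-142-3p with miR-511-3p reversed to 0.13 with either 75th percentile or no normalization, which are the same by construction, since a scaling cancels within an array. It also reversed to 0.0088 without P14, to 0.0034 without P15 and to 0.38 without P20 (range from -0.27). That of miR-142-5p reversed to -0.0074 without P18 and ranged up to 0.63. The 3p minus 5p difference of miR-142 was -0.12 with either 75th percentile or no normalization (exact permutation p = 0.286). With normexp (-0.32) it passed the threshold of 0.05. Relative to miR-142-3p, miR-223-3p passed this threshold with the scalings or none (-0.53), and relative to miR-142-5p it no longer did (-0.65). The latter ranged from -0.84 to -0.61 with 1 array left out, where 4 arrays against 3 cannot reach 0.05. Other causes were not tested. No paired analysis was possible because the groups share no specimen numbers. A signal of miR-223-5p or miR-511-5p below detection is a floor, not a measurement.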
